A study of Mus musculus with 10 samples.

Results

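The MYC, MAX and MXD network is a family of transcription factors that bind DNA as pairs, and 8 of its genes were examined: Myc, Mycn, Max, Mxd1, Mxd3, Mxd4, Mxi1 and Mnt. They were chosen by name from the count tables of mouse small intestinal crypt populations, where they are 8 of 35006 row names. The choice was made with earlier results of these data in view. It used the 0 counts of Mxd3 in the libraries labelled P2, so Mxd3 in P2 is described here without a test, and counts of members in comparisons with P2 are over the other 7.

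The cells came from EF1a-OSCAR mice of the C57BL6/J strain. OSCAR is a pair of fluorescent proteins, mCherry and the CDK9-sensitive VeN90, and a high VeN90 to mCherry ratio reports low activity of CDK9, the kinase that phosphorylates RNA polymerase II during elongation. All 10 libraries carry the same Rosa26 knock-in, driven by the EF1a promoter after removal of its stop cassette with Vasa-Cre, so no group lacks the reporter, and the ages of the mice are not given in the sources used here. Live EpCAM-positive cells were sorted by the OSCAR ratio and by the overall brightness of the reporter, called EF1a, with 10000 cells and 2 libraries per population. P1 was OSCARlow EF1alow, P2 was OSCARhigh EF1alow, P3 was OSCARlow EF1ahigh, P4 was OSCARmed EF1alow and P5 was OSCARmed EF1ahigh. Since each gate can hold several cell types, a lower level in such bulk libraries can mean fewer cells of a type or less RNA per cell, which cannot be told apart.

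As background, MYC and MYCN pair with MAX and bind E-boxes, and the pairs activate genes for growth, ribosome production and proliferation. The MXD proteins, MXI1 and MNT compete for MAX, bind the same sites and recruit SIN3 and histone deacetylase complexes, which repress them. In the intestinal crypt Myc is a target of WNT signalling and is known for its expression in dividing progenitors, whereas Mxd1 is known to rise as cells leave the cycle and differentiate.

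Upstream sequence is shown for Mxd1 and Max, which had the largest differences of the members between P1 and P4. It is also shown for Mxd4 and Mnt. Among the members with a listed sequence, which leaves out Myc, only Mxd4 and Mnt held the E-box letters that this family binds. Each sequence is the 250 bases before the RefSeq start, read in the direction of the gene, in build GRCm38.p6. Capitals mark the E-box CACGTG and the GC box GGGCGG, the latter on both strands (as CCGCCC on the other), with overlapping matches counted separately.
Mxd1 (chr6:86669160-86669409, minus strand): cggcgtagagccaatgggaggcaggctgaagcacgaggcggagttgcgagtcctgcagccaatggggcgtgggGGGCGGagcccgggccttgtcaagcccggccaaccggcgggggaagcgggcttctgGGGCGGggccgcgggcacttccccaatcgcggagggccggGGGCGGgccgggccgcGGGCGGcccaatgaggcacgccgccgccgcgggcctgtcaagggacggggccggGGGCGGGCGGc
Max (chr12:76962249-76962498, minus strand): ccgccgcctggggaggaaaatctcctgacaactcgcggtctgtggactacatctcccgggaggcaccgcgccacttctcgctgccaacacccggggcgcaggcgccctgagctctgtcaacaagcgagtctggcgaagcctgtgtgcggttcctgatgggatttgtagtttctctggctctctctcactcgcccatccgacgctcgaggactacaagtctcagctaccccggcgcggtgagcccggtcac
Mxd4 (chr5:34187711-34187960, minus strand): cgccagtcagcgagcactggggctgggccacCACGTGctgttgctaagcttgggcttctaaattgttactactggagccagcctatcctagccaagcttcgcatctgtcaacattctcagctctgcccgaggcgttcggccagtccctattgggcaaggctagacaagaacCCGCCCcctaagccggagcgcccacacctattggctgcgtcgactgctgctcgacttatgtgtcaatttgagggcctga
Mnt (chr11:74830674-74830923, plus strand): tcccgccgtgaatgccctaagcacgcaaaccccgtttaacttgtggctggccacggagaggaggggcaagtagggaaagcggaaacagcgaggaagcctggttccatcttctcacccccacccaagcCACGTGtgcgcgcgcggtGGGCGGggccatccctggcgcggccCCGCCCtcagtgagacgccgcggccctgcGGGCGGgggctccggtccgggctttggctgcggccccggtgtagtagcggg
CACGTG occurred once each in Mxd4 and Mnt, and it occurs in 6.02% of the 32851 RefSeq promoters of this length. GGGCGG occurred 6 times in Mxd1, 3 times in Mnt, once in Mxd4 and not in the 250 bases of Max, and 32.7% of promoters hold it. Mxi1 has 3 listed starts and is not shown, and its windows held GGGCGG once, 2 times and 4 times. Mxd3, with 8 matches of GGGCGG, and Mycn, with 2, are not shown either. The matches are letters in a window and were not measured as binding sites.

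Between 3857612 and 6485823 reads were counted on genes per library, and 12694 to 17091 genes had a count. All 8 members passed the filter on low counts, as did 13706 genes in all. Levels are given as CPM, counts scaled to a common library size with TMM factors, and 3 counts, the smallest level taken as detected, corresponded to 0.298 to 1.59 CPM, for counting error only. The test was the quasi-likelihood test of edgeR, and a difference was called at a Benjamini-Hochberg adjusted p under 0.01 over all genes. The study calls the libraries of a population biological replicates, and the labels do not say what separated them. The p-values therefore test each difference against the spread between libraries of the same population, whatever separated these libraries. All populations were fitted together, so this spread is pooled over all of them. The spread between the P3 libraries thus also enters the p-values of comparisons without P3.

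Some libraries stood apart. In both P3 libraries mitochondrial transcripts were abundant, at 58.6% and 35.5% of counts, against 1.02% to 4.99% in the others. Epcam, which marks the sorted epithelium, was present at 542 to 1614 CPM in all 10. The 10 Paneth markers summed to 576251 and 413086 CPM in the libraries labelled P2, 20046 and 64792 in P1 and 524 to 10960 in the rest, and P2 and P3 are named here strictly by label, since the labels and the study's text do not match for them. The 10 lymphocyte markers, which an EpCAM sort should remove, summed to 1054 and 302 CPM in P1 and 169 in P3 replicate 1, against 1.91 to 23.2 elsewhere. Scaling by library size alone instead of TMM moved the median log2 difference of all genes by -0.69 between P1 and P4, -1.14 between P2 and P4, -0.44 between P2 and P1, -0.95 between P3 and P5, -0.36 between P3 and P1 and -0.11 between P5 and P4. Of the genes called, the share that was higher was 59.7% with TMM and 23.6% without it between P1 and P4, and 55.9% and 9.37% between P2 and P4. It was 47.8% and 27.1% between P2 and P1, and 51.5% and 8.85% between P3 and P1.

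Over the 5 populations, 4 of the 7 members tested were called as different, against 36.3% of all genes. They were Max (adjusted p = 0.000646, edgeR), Mxd1 (adjusted p = 0.00109, edgeR), Mxd4 (adjusted p = 0.000267, edgeR) and Mxi1 (adjusted p = 0.00018, edgeR). Max, Mxd1 and Mxi1 had their highest levels in P1, and Mxd4 in P2. Myc had an adjusted p of 0.0146, Mnt 0.14 and Mycn 0.384 in the same edgeR test.

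**Figure D1:**
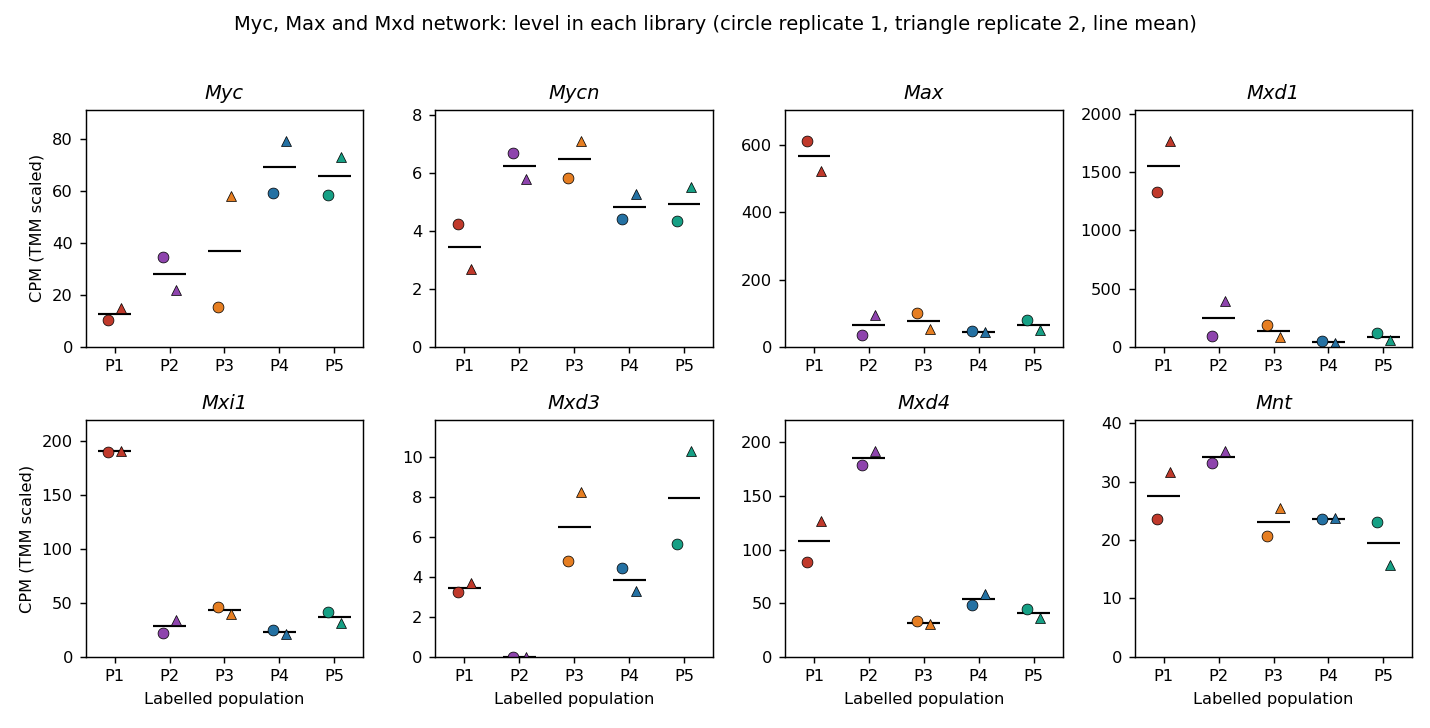
Level of each of the 8 members in each library (y axis: CPM with TMM scaling, a linear axis from 0 for each gene; x axis: labelled population). Circles are replicate 1, triangles replicate 2 and lines the mean of both; the P1 libraries lie above all others for Max, Mxd1 and Mxi1, and the P2 libraries are at 0 for Mxd3.

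Among the activators, Myc, the proto-oncogene at chr15:61816946-61821929 (NCBIM37, plus strand), was highest in the OSCARmed populations and lowest in P1. Its level was 59.3 and 79.4 CPM in P4 and 58.7 and 73.1 CPM in P5. It was 10.2 and 14.9 CPM in P1. The libraries labelled P2 held 34.4 and 21.9 CPM, and those labelled P3 held 15.4 and 58.2 CPM. With TMM scaling the P1 libraries thus lay below all others, with P3 replicate 1, at 29 counts, just above them. With scaling by library size P3 replicate 1 held 7.52 CPM, below the P1 libraries at 9.61 and 14.1 CPM. P4 and P5 overlapped, and with TMM the P3 libraries spanned almost the whole range between P1 and P4. Ordered by mean, Myc stood at 69.4 ± 14.2 in P4, 65.9 ± 10.2 in P5, 36.8 ± 30.2 in P3, 28.2 ± 8.90 in P2 and 12.5 ± 3.34 CPM in P1 (SD, n = 2), and no pair of neighbours in this order differed past the threshold.

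Mycn, the relative of Myc at chr12:12942902-12948720 (NCBIM37, minus strand), was detected in every library at a low level. It ranged from 2.68 CPM in P1 replicate 2 to 7.11 CPM in P3 replicate 2, from 11 to 53 counts. Mean levels were 3.46 CPM in P1, 4.84 in P4, 4.93 in P5, 6.25 in P2 and 6.47 in P3, and no comparison called it.

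Max encodes the obligate partner of both sides of the network and lies at chr12:78038256-78063235 (NCBIM37, minus strand). It had 612 and 524 CPM in P1. The other 8 libraries held between 34.7 and 101 CPM, so P1 did not overlap any of them. The means of P3 (77.0 ± 33.8 CPM), P2 (64.2 ± 41.7) and P5 (64.2 ± 21.7) (SD, n = 2) overlapped in their libraries, and P4 was lowest at 44.7 ± 1.83.

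Among the antagonists, Mxd1, the MXD gene known for its induction in differentiating epithelia, lies at chr6:86597038-86619153 (NCBIM37, minus strand). It had the highest CPM of the members in P1, at 1331 and 1769 CPM. Per kilobase of exon, Max lay above it in P1 replicate 1, at 305 against 286 CPM, and below it in P1 replicate 2, at 262 against 379 CPM. The libraries labelled P2 differed from each other, with 92.4 and 394 CPM, and those labelled P3 held 190 and 87.7 CPM. P5 held 117 and 58.4 CPM and P4 held 51.6 and 32.2 CPM. P1 lay above all other libraries, while P2, P3 and P5 overlapped.

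Mxi1, another repressive MAX partner (chr19:53384996-53450300, NCBIM37, plus strand), followed the same order at its top. It had 190 CPM in both P1 libraries. The other 8 libraries ranged from 21.4 CPM in P4 replicate 2 to 46.2 CPM in P3 replicate 1. No pair of these 4 populations that stood next to each other in the order of means differed past the threshold, and their libraries overlapped. Of its 5619 exon bases, 194 overlap Gm10197 on the opposite strand, a gene without a count in any library.

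Mxd4 (chr5:34516536-34530369, NCBIM37, minus strand), an MXD gene known from differentiating cells, had another pattern, with its highest level in the libraries labelled P2. It stood there at 179 and 192 CPM. P1 held 88.8 and 127 CPM and P4 held 48.3 and 58.8 CPM. P5 held 44.8 and 36.0 CPM and P3 held 32.9 and 30.4 CPM, and no library of one population fell in the range of a neighbour in this order. Only the step from P1 to P4 was called among neighbours (adjusted p = 0.00747, edgeR), and the step from P2 to P1 was not (adjusted p = 0.0188, edgeR).

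Mnt, the broadly expressed antagonist that holds MAX in resting and cycling cells alike (chr11:74644422-74659227, NCBIM37, plus strand), varied little. Its means lay between 19.5 ± 5.21 CPM in P5 and 34.2 ± 1.42 CPM in P2 (SD, n = 2), and all libraries between 15.8 and 35.2 CPM. It was called in none of the comparisons, and its sign between P1 and P4, P2 and P4, P2 and P1, and P3 and P5 turned when libraries were scaled by size alone.

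Mxd3, the MXD member known for its expression in cells in S phase, lies at chr13:55426529-55431119 (NCBIM37, minus strand) and had 0 counts in both libraries labelled P2. P1 had 19 and 22 counts, P3 had 9 and 37, P4 had 36 and 33, and P5 had 49 and 97. The corresponding levels were 3.22 and 3.68 CPM for P1, 4.78 and 8.22 for P3, 4.42 and 3.27 for P4, and 5.62 and 10.3 for P5. At the level of the other populations, 26.8 (P1) to 61.7 (P5) counts would have been found in the P2 libraries together. With a floor of 3 counts over the group, the P2 level was at least 8.93-fold lower than in P1, 9.96-fold lower than in P4, 16.8-fold lower than in P3 and 20.6-fold lower than in P5. These values entered the choice of the gene and carry no test. Mxd3 shares 104 of its 2081 exon bases with Prelid1 on the opposite strand, and reads were counted without regard to strand, so reads there cannot be assigned to either gene. Prelid1 itself held 86.3 and 136 CPM in P2 and 459 and 533 CPM in P1.

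Mxd3 was set beside the cell-cycle genes of these libraries as a description. The 20 G2 and M phase genes summed to 333 and 254 CPM in P2, 541 and 517 for P1, 969 and 1043 for P4, 1372 and 2216 for P3 and 2068 and 3313 for P5. The libraries with the highest of these sums, P5 replicate 2 and P3 replicate 2, were those with the highest Mxd3. The P2 libraries had the lowest sums, but that they are lowest in Mxd3 was fixed by the choice of the gene. The 20 S phase genes did not keep this order, with 951 and 1213 CPM in P4 against 305 and 319 CPM in P1 at Mxd3 levels of 4.42 and 3.27 against 3.22 and 3.68 CPM. Within populations the library with more Mxd3 had the higher G2 and M sum in 2 (P3 and P5) and the lower one in 2 (P1 and P4), with Mxd3 at 0 in both P2 libraries. Mki67, a marker of cycling cells, was also lowest in P2, at 32.3 and 27.7 CPM, and it reached 285 and 554 CPM in P3 and 527 and 826 CPM in P5. The genes most like Mxd3 are not given, because its 0 counts in P2 entered the choice of the gene.

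**Figure D2:**
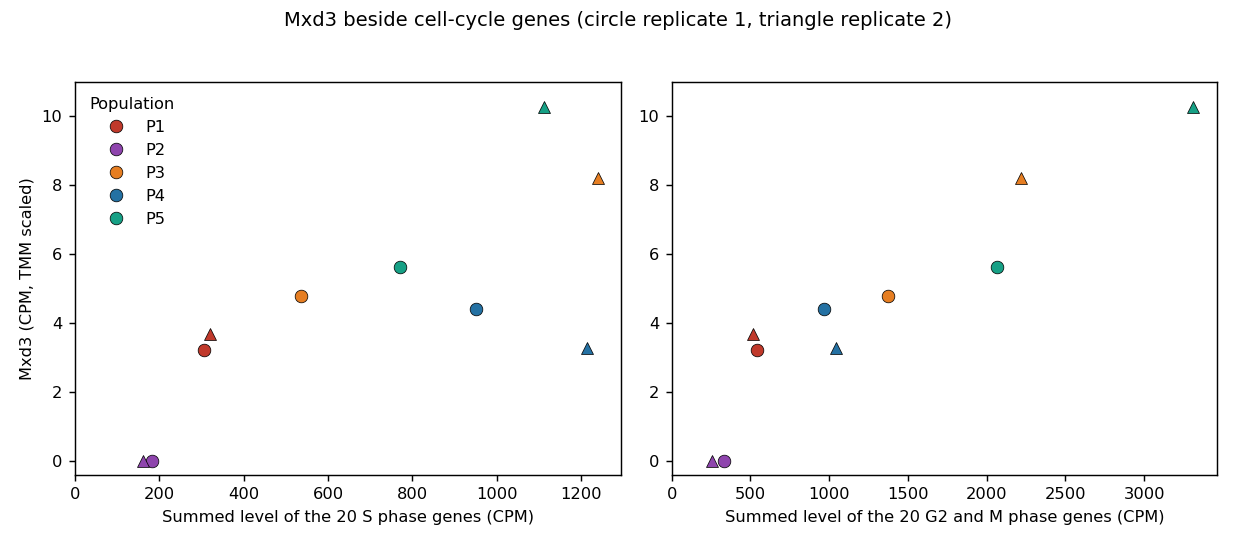
Mxd3 level (y axis, CPM with TMM scaling) against the summed level of the 20 S phase genes (left) and the 20 G2 and M phase genes (right; x axes, CPM) in each of the 10 libraries. Circles are replicate 1 and triangles replicate 2, coloured by population. Both P2 libraries lie at 0, which entered the choice of the gene, with the lowest sums. P5 replicate 2 lies at 10.3 CPM with the highest sum of G2 and M phase genes.

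P1 was compared with P4 to ask how the network differs between OSCARlow and OSCARmed cells that are both EF1alow. Max, Mxd1, Mxi1 and Mxd4 were higher in P1 and Myc was lower, so 5 of the 8 members were called, against 23.4% of all genes (14% higher and 9.44% lower). Mxd1 had the largest difference, 5.21 ± 0.77 on the log2 scale (SE; adjusted p = 0.00149, edgeR), which is 37.0-fold. Max was higher by 3.67 ± 0.50 (adjusted p = 0.00124, edgeR) and Mxi1 by 3.03 ± 0.26 (adjusted p = 0.000903, edgeR), which are 12.7-fold and 8.18-fold. Mxd4 was higher by 1.01 ± 0.23 (adjusted p = 0.00747, edgeR), a 2.01-fold difference. The called genes on the higher side were thus the shared partner and 3 of the 5 antagonists, and the one on the lower side was the main activator. Myc fell by 2.47 ± 0.52 on the log2 scale (SE; adjusted p = 0.00552, edgeR). The values for the rest were -0.49 ± 0.43 for Mycn, -0.15 ± 0.53 for Mxd3 and 0.22 ± 0.26 for Mnt, none past the threshold. The median over the 8 members was 0.61, beside -0.06 over all genes.

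With P4 replicate 1 or P4 replicate 2 left out, 0 members were called between P1 and P4, as were 0 genes of all, with the lone P4 library assumed to vary like the other groups. Mxd1 then differed by 5.58 and 4.91, with adjusted p of 0.0142 and 0.0196 (edgeR). Without P1 replicate 1 or P1 replicate 2, 3 members were called, and Myc (adjusted p = 0.047 and 0.0231, edgeR) and Mxd4 (adjusted p = 0.011 and 0.0659, edgeR) were the ones lost. Mxd4 was the least stable of the called members: its difference was 0.31 (adjusted p = 0.48, edgeR) with scaling by library size and 0.81 (adjusted p = 0.0175, edgeR) with mitochondrial genes removed. It also missed the threshold without P2 replicate 1 (adjusted p = 0.0139), P2 replicate 2 (0.0136), P5 replicate 1 (0.013) or P5 replicate 2 (0.0131) in edgeR.

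Marker genes of several cell types moved with P1, where 14% of all genes were called higher than in P4 and 9.44% lower. Of the 12 enterocyte markers, 3 were called higher than in P4, and they summed to 49380 and 40933 CPM in P1 and 13328 and 5079 in P4. Of the 12 stem cell markers, 9 were called lower, with sums of 789 and 1058 CPM in P1 and 5299 and 7697 in P4. Of the 10 Paneth markers, 8 were higher. Of the 9 lymphocyte markers tested, 6 were called higher, and of the 10 listed 1 was at 0 in P1 replicate 1. In the P1 library with the higher lymphocyte sum, Mxd1 was lower, at 1331 against 1769 CPM, and Max was higher, at 612 against 524 CPM. That library, P1 replicate 1, also had the higher enterocyte sum and the lower Paneth sum (20046 against 64792 CPM), so these cannot be told apart. The part of these cell types in the differences of Max, Mxd1, Mxi1, Mxd4 and Myc was not tested.

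**Figure D3:**
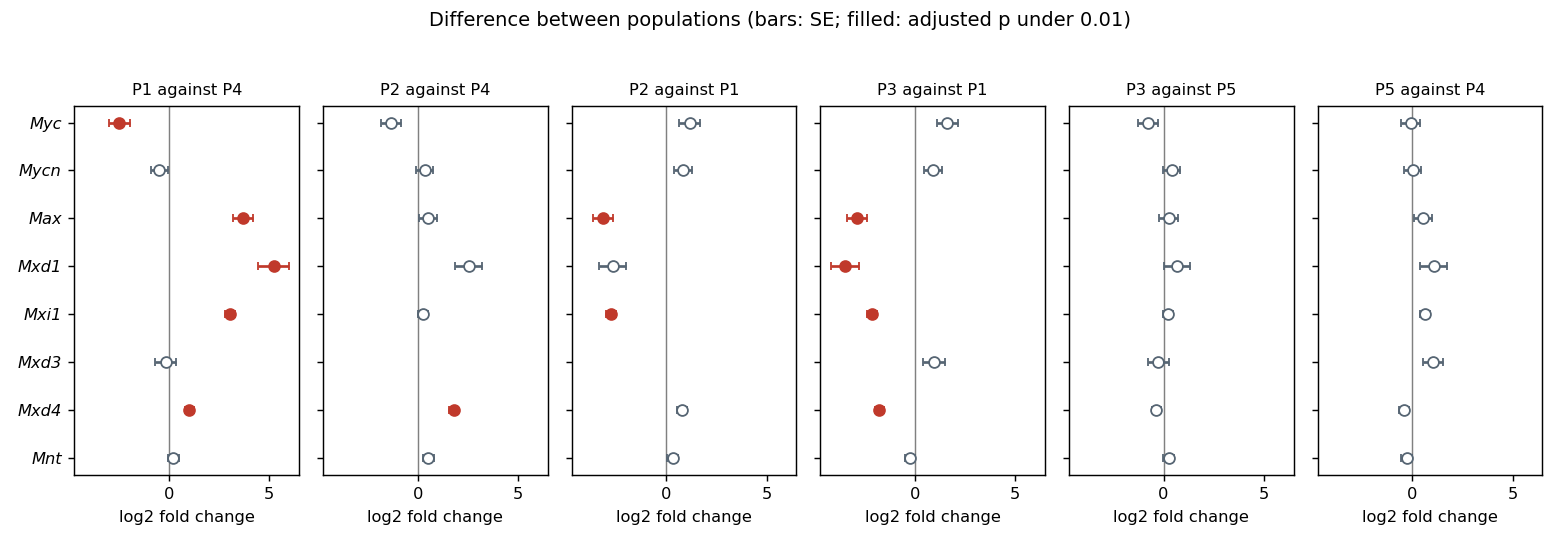
Log2 fold change (x axis) of each member (y axis) in 6 comparisons, with the SE as bars; filled points have an edgeR adjusted p under 0.01. Mxd3 is left out of comparisons with P2; the filled points lie in the comparisons with P1 or P2, and none lie in P3 against P5 or P5 against P4.

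P1 was also compared with P5, the brighter OSCARmed population. The same 5 members were called, against 19.8% of all genes (11.2% higher and 8.59% lower), and the comparison shares the P1 libraries with the one before. Mxd1 was higher by 4.15 ± 0.73, Max by 3.15 ± 0.49, Mxi1 by 2.38 ± 0.25 and Mxd4 by 1.41 ± 0.23 on the log2 scale (SE). Myc was lower, at -2.39 ± 0.52 (adjusted p = 0.00728, edgeR). Mxd3 had -1.20 ± 0.52 and missed the threshold (adjusted p = 0.102, edgeR). Over this comparison and those of P2 with P3, P2 with P5 and P3 with P4, members were called 7 times, which fell to 2 without P1 replicate 1 or P5 replicate 2, to 3 without P1 replicate 2 or P5 replicate 1, and to 4 with scaling by library size.

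By label, P2 against P4 compares OSCARhigh with OSCARmed cells that are both EF1alow. Mxd4 was higher in the libraries labelled P2, by 1.79 ± 0.23 on the log2 scale (SE; adjusted p = 0.00101, edgeR), or 3.46-fold, and it was the only one of the 7 members tested that was called, against 14.3% of all genes. Mxd1 had 2.54 ± 0.68 and an adjusted p of 0.022 (edgeR), with its P2 libraries at 92.4 and 394 CPM, and Myc had -1.31 ± 0.50 and an adjusted p of 0.0782 (edgeR). Max, Mxi1, Mnt and Mycn lay between 0.29 and 0.53, and each turned negative with scaling by library size. The call of Mxd4 was lost without P4 replicate 1 (adjusted p = 0.0153, edgeR) and without P4 replicate 2 (adjusted p = 0.0108, edgeR), and with scaling by library size its difference was 0.65 (adjusted p = 0.134, edgeR). Mxd1 differed by 3.20 without P2 replicate 1 and by 1.11 without P2 replicate 2. DESeq2 called Mxd1 beside Mxd4 (2.54, adjusted p = 0.000194, DESeq2). Without both P3 libraries, a setting added after the data had been seen, Myc was called beside Mxd4 (-1.31, adjusted p = 0.00931, edgeR). P3 is not in this comparison, but its libraries enter the pooled spread of the main fit. Of all genes, 2825 were called between P2 and P4 without both P3 libraries, against 1962 with them. The secretory markers moved with Mxd4: 9 of 10 Paneth, 7 of 9 goblet, 5 of 10 enteroendocrine and 4 of 9 tuft markers tested were higher in P2. Of all genes 8% were higher, and the part of these markers in the difference of Mxd4 was not tested.

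Between P2 and P1, both labelled EF1alow, 2 of the 7 members were called, against 29.1% of all genes. Max was lower in P2 by a log2 value of -3.14 ± 0.49 (SE; adjusted p = 0.00113, edgeR) and Mxi1 by -2.75 ± 0.26 (SE; adjusted p = 0.000245, edgeR). Mxd1 lay at -2.67 ± 0.68 and just missed the threshold (adjusted p = 0.0111, edgeR), and Mxd4 lay at 0.78 ± 0.23 (adjusted p = 0.0188, edgeR). In P2 the antagonist with the highest level per length was thus Mxd4 in replicate 1 and Mxd1 in replicate 2. Mxd4 was also higher in P2 than in P3, by 2.55 ± 0.24, and than in P5, by 2.20 ± 0.23 (SE), and it was the only member called in these comparisons, where 21% (10.4% higher) and 15.9% (8.75% higher, 7.14% lower) of all genes were.

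By label, P3 and P1 are both OSCARlow and differ in the brightness of the reporter. Max, Mxd1, Mxd4 and Mxi1 were lower in the libraries labelled P3, 4 of 8 members against 15.6% of all genes (7.54% lower). Mxd1 differed by -3.49 ± 0.71 (SE; adjusted p = 0.00647, edgeR), Max by -2.90 ± 0.49 (adjusted p = 0.0033, edgeR), Mxi1 by -2.15 ± 0.25 (adjusted p = 0.00148, edgeR) and Mxd4 by -1.77 ± 0.24 (adjusted p = 0.00168, edgeR). Myc had 1.60 ± 0.52 and an adjusted p of 0.0403 (edgeR). Without P1 replicate 1, 0 members and 0 genes of all were called, without P1 replicate 2 there was 1 member, and without P3 replicate 2 there were 2. The mitochondrial share moved with this comparison, at 1.71% and 1.14% in P1 and 58.6% and 35.5% in P3. Marker sums in P1 and P3 were 49380 and 40933 against 31338 and 9296 CPM for enterocytes. They were 20046 and 64792 against 3480 and 1864 CPM for Paneth cells, and 1054 and 302 against 169 and 4.44 CPM for lymphocytes. Called lower in P3 were 1 of 12 enterocyte, 2 of 10 Paneth and 0 of 9 lymphocyte markers tested, and none was called higher. The median log2 difference of the enterocyte markers was 0.03. The G2 and M phase genes summed to 541 and 517 CPM in P1 and 1372 and 2216 CPM in P3. Of these 20 genes, 11 were called higher in P3, where 8.01% of all genes were. The part of these markers and of the mitochondrial share in the difference was not tested. With mitochondrial genes removed 4 members were called, but this changes only the counts and their scaling, not the cells sampled, and does not test that part.

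No member was called between P3 and P5, between P5 and P4 or between P3 and P4. In these comparisons edgeR called 0% of all genes, while 1587, 350 and 2079 genes had an unadjusted p under 0.05, and DESeq2 called 39, 27 and 120 genes. Between P5 and P4, which differ in reporter brightness at a medium OSCAR ratio, the members lay between -0.41 ± 0.23 for Mxd4 and 1.06 ± 0.65 for Mxd1 (SE). Between P3 and P5 they lay between -0.79 ± 0.49 for Myc and 0.66 ± 0.65 for Mxd1. A direction in these comparisons is not given, since several turned with the scaling or with 1 library left out.

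The difference between OSCARlow and OSCARmed cells was then set against itself at dim and bright reporter, by label P1 against P4 and P3 against P5. Mxi1 was the 1 member for which these differed past the threshold, by 2.81 ± 0.35 on the log2 scale (SE; adjusted p = 0.00887, edgeR), against 0.81% of all genes. Its values were 3.03 ± 0.26 at dim and 0.23 ± 0.25 at bright reporter. Max (3.42 ± 0.66, adjusted p = 0.0134), Mxd1 (4.55 ± 0.95, adjusted p = 0.0165) and Mxd4 (1.36 ± 0.33, adjusted p = 0.0242) missed the threshold in edgeR. The call of Mxi1 was lost whichever of the 10 libraries was left out and with scaling by library size, with 0 members called each time.

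Levels between members were compared per kilobase of exon. In P1, Mxd1 and Max made up nearly all of the network: Mxd1 took 43.3% and 52.5% of the members' counts per kilobase, Max 46.3% and 36.2%, and Myc 0.568% and 0.759%. In P4, Myc took 26.9% and 34.4%, Max 28.2% and 25.4% and Mxd4 15.3% and 17.8%. Only Mycn and Mxd3 took smaller shares than Myc in P1, whereas in P4 Myc took the largest share in replicate 2 and, after Max, the next in replicate 1. In the libraries labelled P2, Mxd4 took 42.3% and 24.2% and Mxd1 18.2% and 41.4%, so the leading antagonist changed between the libraries. In P5, Max took 34.7% and 27.5% and Myc 18.9% and 30.3%. P3 was split, with Myc at 4.65% in replicate 1 and 23.0% in replicate 2.

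**Figure D4:**
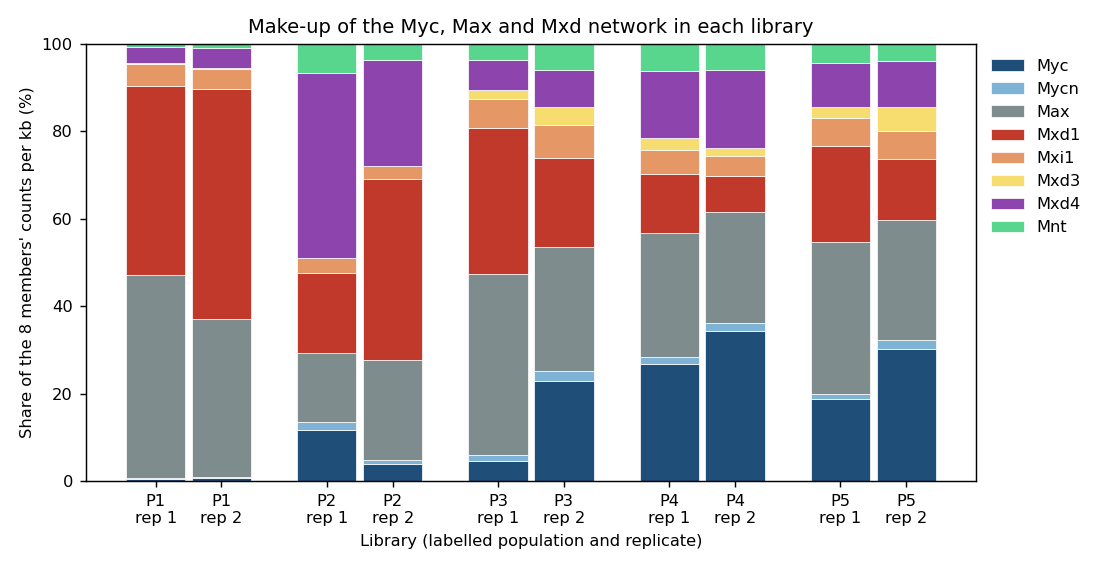
Share of each member in the summed counts per kilobase of exon of the 8 members (y axis, %) in each library (x axis). Each bar is 1 library and sums to all of the network; Mxd1 and Max fill most of the P1 bars, Mxd4 is widest in P2 replicate 1, and Myc is widest in P4 replicate 2.

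The balance of Myc against its antagonists was given as the log2 ratio of Myc to the sum of Mxd1, Mxd3, Mxd4, Mxi1 and Mnt per kilobase. It was -6.54 and -6.37 in P1, so that 93.2 and 82.9 antagonist reads per kilobase of exon were counted for each of Myc. It was -0.69 and -0.16 in P4, or 1.61 and 1.12 for each of Myc, and -1.26 and -0.41 in P5. The P2 libraries stood at -2.60 and -4.20 and the P3 libraries at -3.50 and -1.01. The P1 libraries lay below all others, P4 and P5 overlapped, and P2 and P3 overlapped over a wide range. This ratio is a description of reads per kilobase of exon, not of transcript numbers, and is without a test.

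Within each population, Myc was higher in the library with the higher sum of the 12 stem cell markers, in 5 of 5 populations, and in the library with the lower sum of enterocyte markers, also in 5 of 5. Max was higher in the library with more enterocyte markers in 5 of 5, and Mxd1 and Mxi1 in 4 of 5, P1 being the exception for both. Mnt followed the enterocyte sum in 2 of 5 and Mxd4 in 3 of 5. Myc was also higher in the library with more of the S phase genes in 5 of 5, and of the G2 and M phase genes in 4 of 5. Max was higher in the library with less of the S phase genes in 5 of 5. In every population the library with more stem cell markers had more of the S phase genes and fewer enterocyte markers, so these cannot be told apart. In P3, for example, replicate 1 held 31338 CPM of enterocyte and 712 CPM of stem cell markers, with Mxd1 at 190 and Myc at 15.4 CPM. Replicate 2 held 9296 and 3331 CPM, with Mxd1 at 87.7 and Myc at 58.2 CPM. This pattern was looked for after the values were seen, and with 2 libraries per population it is a description.

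Over the 10 libraries, the genes most like each of the other 7 members also differed, by Pearson r of log2(CPM + 1) over libraries that share gates and depth. Myc was followed by Mettl2 (r = 0.99), D19Bwg1357e (r = 0.987) and Prps2 (r = 0.986), and Max by Rap2c (r = 0.995), Urgcp (r = 0.995) and Pcyt1a (r = 0.994). Mxd1 was followed by Rhof (r = 0.993), Apol9b (r = 0.989) and Krt20 (r = 0.985), a keratin of differentiated enterocytes. Mxd4 was followed by Btg2 (r = 0.987), an antiproliferative gene, Khnyn (r = 0.984) and Calcoco1 (r = 0.977), and Mxi1 by Sephs2 (r = 0.993), Crot (r = 0.991) and Ostf1 (r = 0.99). For Mycn the 3 were Galc (r = 0.97), Dars (r = 0.929) and Gm17201 (r = 0.92), and for Mnt they were Preb (r = 0.9), Ptpdc1 (r = 0.887) and Mapk14 (r = 0.883). Among the members themselves, Max and Mxi1 had r = 0.98, Max and Mxd1 had r = 0.94, and Mxd1 and Myc had r = -0.90.

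The 5 other genes of the extended network are Mycl1, another Myc paralogue, Mga, a MAX partner, Mlx, the MAX-like partner, and the glucose-sensing factors Mlxip and Mlxipl. Of these, 4 differed over the 5 populations, where 36.3% of all genes did. Mlx was higher in P1 than in P4, at 218 and 227 against 65.1 and 57.1 CPM, by 1.86 ± 0.25 (SE; adjusted p = 0.00119, edgeR). Mycl1 was lower by a log2 value of -1.41 ± 0.26 (SE; adjusted p = 0.00338, edgeR) and Mlxip by -1.22 ± 0.19 (adjusted p = 0.00177, edgeR). Mga (-0.99 ± 0.28, adjusted p = 0.021, edgeR) and Mlxipl (-1.08 ± 0.31, adjusted p = 0.0215, edgeR) missed the threshold. Between P2 and P4 only Mlxipl was called, at 40.8 and 78.7 against 296 and 262 CPM, or -2.22 ± 0.33 (SE; adjusted p = 0.00167, edgeR). The count of 4 fell to 2 without P1 replicate 1, P1 replicate 2, P4 replicate 2, P5 replicate 1 or P5 replicate 2.

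Cofactors and turnover factors of the network were followed as a list of 23. Between P1 and P4, 2 were higher and 5 lower, where 14% and 9.44% of all genes were, with a median of -0.72 beside -0.06 over all genes. The higher ones were the corepressor genes Ncor1 (1.31 ± 0.29, adjusted p = 0.00694, edgeR) and Sin3b (1.17 ± 0.24, adjusted p = 0.00542, edgeR). Sin3a (-0.087), Hdac1 (-0.021) and Hdac2 (-0.93), also of corepressor complexes and named after their values were seen, were not called. Among the lower ones were Kat2a, a histone acetyltransferase (-2.25 ± 0.22, adjusted p = 0.000903, edgeR), Usp36, a deubiquitinase (-1.66 ± 0.37, adjusted p = 0.00723, edgeR), and Ruvbl2, an ATPase of chromatin complexes (-1.44 ± 0.29, adjusted p = 0.00488, edgeR). Kat2a held 9.49 and 8.20 CPM in P1 and 41.3 and 43.3 CPM in P4, and 28.1 to 48.4 CPM elsewhere. With scaling by library size 0 of the 23 were higher and 5 lower, and Ncor1 (0.62) and Sin3b (0.47) lost their calls, and without P4 replicate 1 or P4 replicate 2 none was called between P1 and P4. Between P2 and P4 only Skp2, an F-box protein, was called, with 1 and 8 counts in P2 and a log2 value of -3.68 ± 0.67 (SE; adjusted p = 0.00417, edgeR). Over the 5 populations 7 of the 23 were called, where 36.3% of all genes were, and the number was 2 without P1 replicate 1 or P1 replicate 2, 3 without P4 replicate 1 or P4 replicate 2, 4 without P2 replicate 1, P2 replicate 2 or P5 replicate 2, and 11 without P3 replicate 1 or P3 replicate 2.

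Genes that MYC is known to activate, mostly of ribosome production, were followed as a list of 30. Between P1 and P4, 21 were lower and 2 higher, with a median of -1.63 beside -0.06 over all genes, of which 9.44% were called lower. The largest differences were in Rrp9, a processing factor of ribosomal RNA (-2.31 ± 0.38), Tfrc, the transferrin receptor (-2.27 ± 0.29), and Polr1b, a subunit of RNA polymerase I (-2.20 ± 0.24) (SE). Tfrc held 74.2 and 91.0 CPM in P1 against 415 and 379 CPM in P4, and Polr1b 12.2 and 8.70 against 45.2 and 51.2 CPM. The 2 higher genes were Ldha, lactate dehydrogenase, by 1.61 ± 0.34, and Odc1, the first enzyme of polyamine synthesis, by 1.51 ± 0.19. Odc1 held 116 and 126 CPM in P1 and 42.9 and 42.4 CPM in P4. With scaling by library size 20 were lower and 0 higher, with Ldha at 0.92 and Odc1 at 0.81, neither called. Without P4 replicate 1 or P4 replicate 2 none of the 30 was called, and without P1 replicate 1 or P1 replicate 2 there were 6 or 10 lower, while the median stayed between -1.52 and -1.74 in these fits.

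Between P2 and P4, 9 of the 30 were lower and 0 higher, with a median of -1.06 beside 0.05 over all genes, of which 6.31% were called lower. Tfrc (-2.90 ± 0.30), the chaperonin gene Hspd1 (-2.36 ± 0.22) and its partner Hspe1 (-1.76 ± 0.31) differed most (SE). Hspd1 held 47.9 and 37.7 CPM in P2 and 205 and 235 CPM in P4. The number lower was 20 with scaling by library size, 2 without P2 replicate 1, P4 replicate 1 or P4 replicate 2, 3 without P2 replicate 2, and 5 without P5 replicate 1 or P5 replicate 2. Between P3 and P1, 15 were higher in P3 and 1 lower, where 8.01% of all genes were higher. That one was Odc1 (-0.97 ± 0.19, adjusted p = 0.00526, edgeR), named after its value was seen. With scaling by library size 2 were higher, without P1 replicate 1 none was called, without P1 replicate 2 there were 4 and without P3 replicate 2 there were 10. Over the 5 populations 24 were called, where 36.3% of all genes were, which fell to 9 without P1 replicate 1, 10 without P1 replicate 2, 14 without P4 replicate 1, 13 without P4 replicate 2 and 15 without P5 replicate 2.

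**Figure D5:**
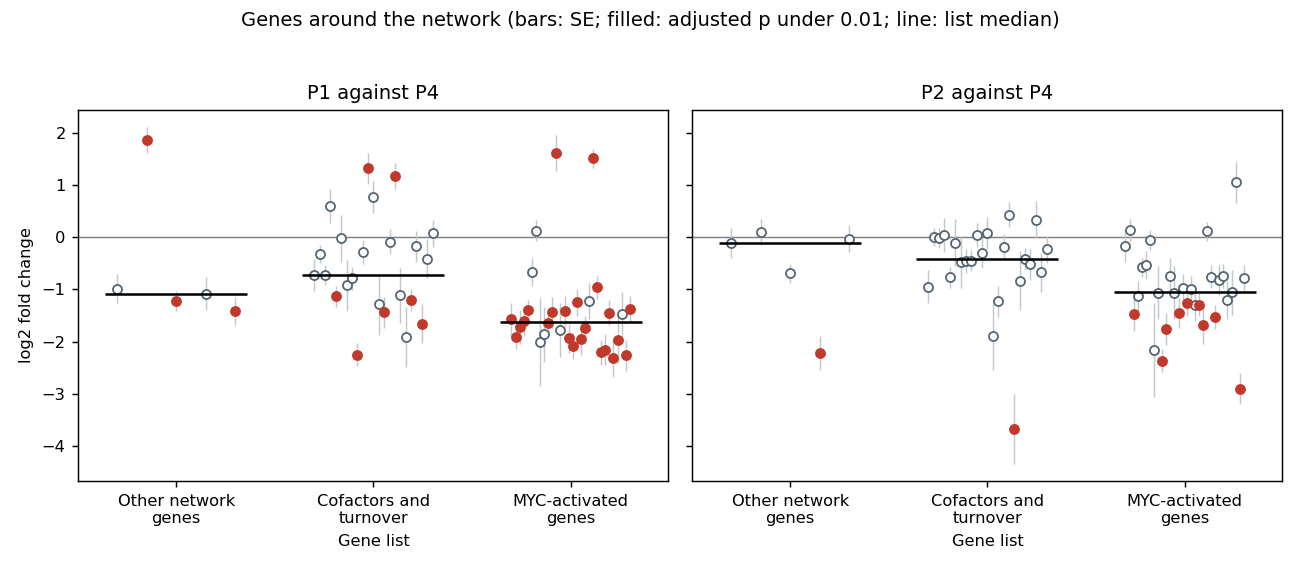
Log2 fold change (y axis) of each gene in 3 lists (x axis) for P1 against P4 (left) and P2 against P4 (right), with the SE as bars, filled points for an edgeR adjusted p under 0.01 and a line at the median. Of the MYC-activated genes 21 lie below 0 as filled points in P1 against P4 and 9 in P2 against P4.

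The S phase genes moved with these lists in both comparisons with P4, and the G2 and M phase genes did so between P2 and P4. Of the 20 S phase genes 12 were lower in P1 than in P4 and 15 lower in P2 than in P4, where 9.44% and 6.31% of all genes were lower. Of the 20 G2 and M phase genes only 1 was called lower in P1 than in P4, against the same 9.44% of all genes. Their median log2 difference there was -0.79. Between P2 and P4, 18 of these 20 genes were lower in P2 and 1 was higher. The S phase genes summed to 305 and 319 CPM in P1, against 951 and 1213 CPM in P4. The part of cycling cells in the levels of the network was not tested.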

How the data were processed

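The study isolated poly-A RNA from sorted crypt cells, mapped the reads with TopHat2 2.1.0 (Bowtie) to mm9 and counted them on exons with HTSeq 0.11.2, ignoring strand. The authors deposited raw counts of reads per gene and library, with reads of several alignments left out. Samples were grouped by title, and the tables' own names carry other population numbers, which were not used. The members and lists were chosen with earlier results of these data known, and the lists were written from general knowledge. The 206 rRNA gene names and the unnamed row (under 0.001% of counts) were left out. Names were matched to GENCODE of NCBIM37, where 33643 of 35006 were found. One model with 5 population means was fitted to all 10 libraries, after a count filter (filterByExpr) that left 13706 genes. TMM scaling and quasi-likelihood tests used edgeR 4.0.16 in R 4.3.3, with Benjamini-Hochberg adjustment. DESeq2 1.42.0, the tool named in the study's methods, was an alternative; others covered scaling, filters, the threshold, mitochondrial genes, a replicate block and each library left out. The procedure was tested on simulated data with 200 genes changed 4-fold in P1. Of these, 105 were called between P1 and P4 and 86 over the 5 populations, with 1 and 0 unchanged genes called. A member that was not called can therefore still differ. In the simulation all other genes had the same mean in every population, so it does not cover shifts in scaling or libraries that stand apart. SE were derived from the F statistics. Tables and figures used Python 3.11.15, pandas 2.3.3, numpy 2.4.6 and matplotlib 3.10.9. Upstream sequences are RefSeq's, 7 of 8 members matched; Myc is named only. Genes were named by rule: the members, all other network genes, up to 3 genes per direction of each further list with the largest called difference between P1 and P4 or P2 and P4, and the 3 genes most like each member (not given for Mxd3). Prelid1, Gm10197 and Epcam were named beside values they touch.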

Additional observations from a re-analysis of the deposited data

Results flagged for a closer look

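By label, the difference between OSCARlow and OSCARmed cells was not the same at dim reporter (P1 against P4) and at bright reporter (P3 against P5) for 4 of the genes named here, by an edgeR test of the difference between both at an adjusted p under 0.01. For Mxi1 the 2 log2 differences stood apart by 2.81 (adjusted p = 0.00887, edgeR). For Tfrc they stood apart by -2.96 (adjusted p = 0.00887, edgeR), for Kat2a by -2.25 (adjusted p = 0.00887, edgeR) and for Polr1b by -2.25 (adjusted p = 0.00888, edgeR). Of all genes 0.81% were called in this test, and the P3 libraries that enter it, whose label does not match the study's text, held 58.6% and 35.5% mitochondrial counts, whose part was not tested. Tfrc, Kat2a and Polr1b were named for their difference between P1 and P4, which is a term of this test, so their values here are descriptions. The call of Mxi1 was lost with any 1 of the 10 libraries left out and with scaling by library size.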

How the results depend on the processing

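Each call was recomputed under the settings named in the methods, and scaling by library size and leaving out both P3 libraries were added after the data had been seen. Of the values of single genes, 772 kept their direction and their side of the threshold, 35 kept the direction and lost the call, 22 gained one and 29 changed sign, all of them values that were not called. The number of members called between P2 and P4 was 3 without the filter on low counts, 2 with DESeq2, 2 at an adjusted p under 0.05, 2 without both P3 libraries and 0 with scaling by library size. Between P2 and P1 it was 4 without the filter, with DESeq2 and at 0.05. Over the remaining pairs it was 4 with scaling by library size. For the difference between EF1a levels it was 5 without the filter, 4 with DESeq2, 4 at 0.05 and 0 with scaling by library size. For the cofactors it was 11 without the filter and 11 with DESeq2. The log2 ratio of Myc to its antagonists, with counts not divided by length, was -7.24 in P1, -1.09 in P4 and -1.52 in P5. With each library left out in turn, the members called ranged from 0 to 5 between P1 and P4, 0 to 2 between P2 and P4, 2 to 3 between P2 and P1, 0 to 4 between P3 and P1, 2 to 7 over the remaining pairs, 4 to 5 over the 5 populations and 0 to 0 for P3 against P5, P5 against P4 and the difference between EF1a levels. The other network genes ranged from 2 to 4, the cofactors from 2 to 11 and the MYC-activated genes from 9 to 27. A population left with 1 library was assumed to vary like the others. The sign changes were as follows, on the log2 scale. With scaling by library size, P2 against P4 gave -0.77 for Mycn, -0.60 for Max, -0.85 for Mxi1 and -0.60 for Mnt, and P3 against P5 gave -0.52 for Mycn, -0.83 for Max, -0.46 for Mxd1, -0.75 for Mxi1 and -0.64 for Mnt. That scaling also gave -0.47 for Mnt in P1 against P4, -0.13 for Mnt in P2 against P1 and -0.076 for Mycn in P5 against P4, where Mycn was -0.0024 without the filter and -0.016 without mitochondrial genes. With 1 library left out, Myc ranged from -0.26 to 0.16 and Mycn from -0.15 to 0.19 in P5 against P4, Max from -0.39 to 1.04 and Mxi1 from -0.089 to 0.52 in P2 against P4, and Mxd3 from -0.36 to 0.064 and Mnt from -0.045 to 0.42 in P1 against P4. In P3 against P5, Max ranged from -0.30 to 0.64, Mxd1 from -0.017 to 1.22, Mxd3 from -0.74 to 0.23 and Mnt from -0.0043 to 0.54, and in P3 against P1, Mnt ranged from -0.45 to 0.0067. The causes were not tested. The populations share replicate numbers in their labels, and deviations of libraries with the same number correlated above 0.1 in 9 of 10 pairs of populations, up to 0.55 (P4 and P5), and at -0.06 in the last (P2 and P3). The labels give no shared animal or day, so the numbers were not taken as pairs. With the replicate number as a block, the members called were 5 between P1 and P4, 1 between P2 and P4, 2 between P2 and P1, 4 between P3 and P1 and 5 over the 5 populations (Myc being the addition, adjusted p = 0.00693 in edgeR), and the other network genes were 4, the cofactors 7 and the MYC-activated genes 24. At this depth Mycn and Mxd3, with at most 97 counts in a library, carry the widest counting error.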
